A study of Homo sapiens and Mus musculus with 27 samples.

Results

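The keratin genes were followed here through 27 RNA-seq libraries of 2 breast cancer cell lines. A gene was a member if its name was KRT followed by a number and, in some cases, a letter from A to C, in either letter case. The rule found 55 of 59453 gene names in the human tables and 54 of 55367 in the mouse table.

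LM2 is a human breast cancer line, a lung-metastatic derivative of MDA-MB-231, and 4T1 is a mouse mammary carcinoma line. In each line 1 group overexpressed MKL1 in a form labelled caMKL1, 1 overexpressed wild-type MKL1 and 1 was the control, with 3 replicate libraries a group. MKL1, also called MRTF-A, is an actin-regulated coactivator of the transcription factor SRF. Another experiment compared LM2 cells without LifeAct, with little of it and with much of it (neg, low and high), where LifeAct is a peptide that binds filamentous actin, again with 3 libraries a group. All controls, and all LifeAct groups, carry the genotype label WT. The caMKL1 replicates are titled and treated as caMKL1, but their genotype field counts up to caMKL2 and caMKL3. The labels give no construct sequence, promoter or clone, and do not say that replicates came from separate cultures, so the p-values measure only the spread between these libraries. RNA was selected by polyA for both MKL1 experiments and cleared of ribosomal RNA for the LifeAct one.

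Keratins are the intermediate filament proteins of epithelial cells. A type I and a type II keratin pair into heteropolymers, so that a filament needs both types. KRT8 with KRT18, KRT7 and KRT19 are the keratins of simple and glandular epithelia, KRT5 with KRT14 those of basal cells, and KRT6, KRT16 and KRT17 are induced in wounded and stressed epithelia. Hair keratins such as KRT81 and KRT86 harden the hair shaft.

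Depth per library was 22147429 to 32147377 counts for the LM2 experiment. The 4T1 libraries held 21896459 to 29370432 counts, and those of the LifeAct experiment 15581289 to 23678322. In LM2 the first caMKL1 library stood apart from the other 2, with a chi-square per gene of 40.4 and 43.9 where those 2 differed by 2.86. The first MKL1 library also stood apart, at 44.5 and 30.9 against 18.3. Mitochondrial genes held 7.76%, 13.4% and 13.6% of counts in the LM2 caMKL1 libraries and 6.18%, 9.87% and 7.11% in the MKL1 libraries, against 7.84%, 7.73% and 8.94% in controls, and the part of this in the keratin results was not tested. Among keratins the difference showed in the summed TPM (a transcript level scaled by exon length and library), which was 3563, 2075 and 2057 in the caMKL1 libraries. TPM was not scaled by TMM. In CPM (a count level per library size, scaled by TMM) the gap was smaller for the keratins KRT17, KRT19 and KRT8. KRT17 was at 1342, 1049 and 1020.5 CPM, KRT19 at 916, 768 and 795, and KRT8 at 839.7, 661 and 645. MRTFA, the gene for MKL1, averaged 218 ± 41.4 CPM in LM2 caMKL1 and 162 ± 20.3 in MKL1 libraries, against 10.8 ± 0.639 in controls (SD, n = 3 each). Mrtfa averaged 623 ± 47.4, 2142 ± 56.2 and 39.1 ± 2.28 CPM in 4T1 caMKL1, MKL1 and control libraries.

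Of the 55 human keratins, 18 had no count in any LM2 library and 22 had counts but did not pass the filter on low counts, with at most 45 counts over the 9 libraries. The remaining 15 were tested. In 4T1, 21 of 54 keratins were at 0, 19 were counted but untested and 14 were tested. In the LifeAct experiment 13 of 55 were at 0, 27 were counted but untested and 15 were tested. Of 6 simple keratins, 4 were tested in LM2, 5 in 4T1 and 4 in the LifeAct experiment, and of 3 basal keratins 2, 1 and 2. None of the 9 root sheath keratins was tested in any experiment. Hair keratins were not all silent, with 3 of 17 tested in LM2 (KRT34, KRT81 and KRT86), 1 of 15 in 4T1 (Krt87) and 4 of 17 in the LifeAct experiment (KRT34, KRT81, KRT83 and KRT86). Since a keratin could pass the filter through the group in which it was high, counts over those tested describe those genes and not the whole family.

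In LM2 cells with caMKL1, 9 of 15 tested keratins were higher than in controls at an adjusted p under 0.05, 2 were lower and 4 did not pass. Over all 18893 tested genes the share called in either direction was 64.9%, with 31.9% higher and 33% lower. The called share of the tested keratins, 73.3%, was near that background. The median log2 ratio of the tested keratins was 2.04, against -0.05 over all tested genes, and it stayed at 2.04 with the 3 genes that had no control count set to their bound. KRT9, KRT13, KRT14, KRT16 and KRT17, with 0 to 11 counts over the controls, passed the filter on low counts through the groups in which they were high, so the direction and the median are partly fixed by the filter. With library totals in place of TMM, which moved the median of all genes to -0.46, 8 keratins were higher and 4 lower. Leaving out the first caMKL1 and the first MKL1 library gave 8 higher and 4 lower of 14.

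KRT17, a type I keratin of wounded and stressed epithelia, changed most. Its level was 1342, 1049 and 1020.5 CPM in the caMKL1 libraries and 90.2, 78.6 and 50.5 CPM in the MKL1 libraries, against 0.203, 0.152 and 0.0753 CPM in controls, which held 11 counts in all. The 3 groups did not overlap, and every library of each group lay far from the next. The log2 ratio was 12.92 ± 0.32 (SE) for caMKL1 against control (adjusted p 5.85e-14) and 8.96 ± 0.32 for MKL1 against control (adjusted p 2.47e-10). KRT17 was also higher with caMKL1 than with MKL1, by 3.96 ± 0.19 on the log2 scale (adjusted p 4.54e-11). Without the first caMKL1 and MKL1 libraries the log2 ratio to control was 12.79 for caMKL1.

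KRT16, the other stress keratin that could be tested, had 9.06, 5.92 and 6.89 CPM with caMKL1 and 0.1, 0.303 and 0.114 CPM with MKL1, while the controls held 1 count in a single library. The ratio of summed levels was 576 for caMKL1, with a 95% counting interval of 103 to 22789, and 12.3 for MKL1, with an interval of 1.87 to 520.0. Its fitted rise with MKL1 had an adjusted p of 0.0469, which leaving out 1 library moved to between 0.0374 and 0.177. With library totals in place of TMM that adjusted p was 0.0659. The type II partners of these keratins were almost uncounted, with 2 counts of KRT6A over the 9 libraries and 0 of KRT6B and KRT6C. KRT6A, KRT6B and KRT6C are near-identical, as are KRT14, KRT16 and KRT17 over long stretches, so counts within each set are uncertain.

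KRT19, the smallest keratin of simple epithelia and a common tumour marker, had 916, 768 and 795 CPM with caMKL1, 46.9, 46.1 and 53.6 CPM with MKL1 and 30.3, 34.4 and 40.5 CPM in controls. The caMKL1 libraries lay far above the rest, and the MKL1 libraries lay just above the controls without overlap. The log2 ratio to control was 4.56 ± 0.13 with caMKL1 (adjusted p 1.97e-13) and 0.48 ± 0.12 with MKL1 (adjusted p 0.0135). The smaller rise did not pass with library totals, where its adjusted p was 0.0648, or without control replicate 1 (0.0883) or control replicate 2 (0.0629).

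KRT8, the type II keratin of simple epithelia, had 839.7, 661 and 645 CPM with caMKL1 and 293, 253 and 234 CPM with MKL1, against 169, 174 and 177 CPM in controls. The 3 groups kept apart. Its log2 ratio to control was 2.04 ± 0.12 with caMKL1 (adjusted p 3.75e-10) and 0.58 ± 0.11 with MKL1 (adjusted p 0.00335). KRT18, its type I partner, did not follow: it had 189, 138 and 143 CPM with caMKL1 and 213, 160.3 and 163 CPM with MKL1, against 137, 146 and 131 CPM in controls. The caMKL1 and control ranges of KRT18 overlapped, and its log2 ratio of 0.18 ± 0.13 did not pass (adjusted p 0.222) and turned to -0.21 with library totals. With MKL1 the KRT18 log2 ratio of 0.37 ± 0.13 had an adjusted p of 0.0737, and of 0.0408 in DESeq2. The exons of KRT8 and KRT18 overlap by 525 bases on opposite strands of chromosome 12, which is 7.63% of the KRT8 and 17.1% of the KRT18 exon length. No strand setting is given for the counting, so counts in this overlap are uncertain.

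KRT7, a type II keratin of glandular ducts, was highest with MKL1. It had 75.3, 63.4 and 51.8 CPM with caMKL1 and 181, 135 and 125 CPM with MKL1, against 50.5, 49.0 and 50.2 CPM in controls. The MKL1 libraries lay above all others, while the lowest caMKL1 library lay just above the controls. The log2 ratio to control was 1.56 ± 0.14 with MKL1 (adjusted p 2.46e-06), and caMKL1 lay 1.21 ± 0.14 below MKL1 on the log2 scale (adjusted p 1.65e-06). For caMKL1 against control it was 0.35 ± 0.14 (adjusted p 0.0398), a call lost without caMKL1 replicate 1 (adjusted p 0.192), caMKL1 replicate 2 (0.0747) or any 1 control (0.0833, 0.102 and 0.0913), and turned to -0.049 with library totals. KRT7 shares 282 exon bases with its antisense gene KRT7-AS, which had 1085 counts over the 9 libraries against 21178 for KRT7.

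**Figure D1:**
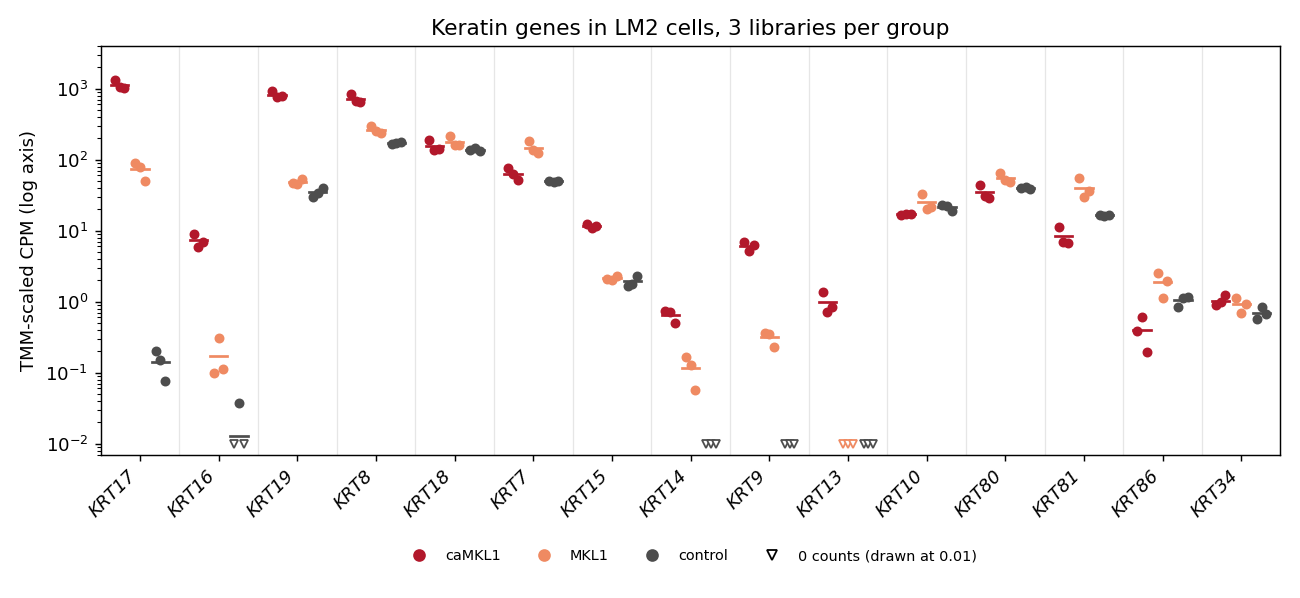
TMM-scaled CPM levels of the 15 tested keratins in the 9 LM2 libraries, on a log axis, with points for libraries, bars for group means and open triangles for libraries with 0 counts. KRT17, KRT16, KRT19, KRT8, KRT15, KRT14, KRT9 and KRT13 sit highest in caMKL1 libraries, while KRT7 and KRT81 sit highest in MKL1 libraries.

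KRT15, a type I keratin of basal cells and of the hair follicle bulge, had 12.3, 10.8 and 11.7 CPM with caMKL1, 2.1, 1.99 and 2.33 CPM with MKL1 and 1.66, 1.78 and 2.33 CPM in controls. The caMKL1 libraries stood apart, with a log2 ratio to control of 2.58 ± 0.18 (adjusted p 2.82e-09), and the MKL1 and control ranges overlapped (log2 ratio 0.16 ± 0.19, adjusted p 0.649). KRT14, the basal partner of KRT5, was counted only in treated libraries, at 0.73, 0.704 and 0.496 CPM with caMKL1 and 0.167, 0.13 and 0.0568 CPM with MKL1. Against 3 counts summed over the controls, it was at least 16.9-fold higher with caMKL1, and its MKL1 level was at least 2.93-fold higher (adjusted p 1.04e-05 and 0.0299). The MKL1 call was lost without MKL1 replicate 1 (adjusted p 0.0924), MKL1 replicate 2 (0.0526) or any 1 control (0.0864, 0.0899 and 0.101). KRT5 had no count in any of the 9 libraries.

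The differentiation keratins KRT9 and KRT13 rose with caMKL1 at low levels, and KRT9 with MKL1 also. KRT9, a type I keratin of palm and sole skin, had 6.91, 5.16 and 6.25 CPM with caMKL1 and 0.367, 0.346 and 0.227 CPM with MKL1, and 0 counts in every control. It was at least 159-fold higher than control with caMKL1 and at least 7.91-fold higher with MKL1 (adjusted p 8.31e-10 and 0.00108). KRT13, a keratin of internal stratified epithelia, had 1.38, 0.704 and 0.843 CPM with caMKL1 and 0 counts in every MKL1 and control library, which makes it at least 26.1-fold higher than control. KRT10, the type I keratin of differentiating epidermis, had 16.7, 17.3 and 16.9 CPM with caMKL1 and 32.7, 20.5 and 21.7 CPM with MKL1, against 23.1, 22.0 and 19.0 CPM in controls. Its log2 ratio of -0.33 ± 0.16 with caMKL1 did not pass (adjusted p 0.0755).

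Seen along chromosome 17 (GRCh38, minus strand), 7 neighbouring keratin genes were higher with caMKL1 than in controls. They run from KRT13 (41500981 to 41505705) through KRT15, KRT19, KRT9, KRT14 and KRT16 to KRT17 (41619442 to 41624842). KRT36, the next keratin before KRT13 (41486136 to 41492546), had 3 counts over the 9 libraries. Over all tested genes 31.9% were higher with caMKL1 than in controls. KRT9, KRT13, KRT14, KRT16 and KRT17 passed the filter on low counts through the groups in which they were high. Their direction was therefore partly fixed by the filter.

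RefSeq promoter windows, from 250 bases before to 50 after the annotated start, matched 34 of the 55 human keratins in 38 entries. The pathway under study acts through SRF, which binds a sequence called the CArG box. No strict match to it was found on either strand in any of the 38 entries, where 1.29% of all 35116 entries held one. At so low a share, 38 entries would hold few or none in any case, so this absence is not informative. TATAA was found in 28 of the 38 entries on either strand, against 20.4% of all entries. These matches are descriptions of the letters in a window and not of binding. Windows of 3 keratins follow (GRCh38.p14, chromosome 17, minus strand), 5′ to 3′ on the gene strand with TATAA in capitals. They show a keratin absent from controls and present with caMKL1 (KRT9, chr17:41572010-41572309), a hair keratin that rose with LifeAct (KRT34, chr17:41382257-41382556) and a keratin whose caMKL1 change did not pass (KRT10, chr17:40822565-40822864). In KRT9 and KRT34 the motif began 31 bases before the start, and in KRT10 it began 29 bases before it.
KRT9: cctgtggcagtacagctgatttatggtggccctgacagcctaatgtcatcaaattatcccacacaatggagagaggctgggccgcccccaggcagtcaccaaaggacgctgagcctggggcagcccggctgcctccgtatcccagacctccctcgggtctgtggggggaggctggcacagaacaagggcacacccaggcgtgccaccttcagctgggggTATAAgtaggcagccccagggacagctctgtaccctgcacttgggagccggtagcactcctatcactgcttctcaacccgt
KRT34: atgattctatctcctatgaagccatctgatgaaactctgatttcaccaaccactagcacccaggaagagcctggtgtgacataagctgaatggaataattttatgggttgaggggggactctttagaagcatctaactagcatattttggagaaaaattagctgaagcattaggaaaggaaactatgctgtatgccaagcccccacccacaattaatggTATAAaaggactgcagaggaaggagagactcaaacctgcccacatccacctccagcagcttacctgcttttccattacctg
KRT10: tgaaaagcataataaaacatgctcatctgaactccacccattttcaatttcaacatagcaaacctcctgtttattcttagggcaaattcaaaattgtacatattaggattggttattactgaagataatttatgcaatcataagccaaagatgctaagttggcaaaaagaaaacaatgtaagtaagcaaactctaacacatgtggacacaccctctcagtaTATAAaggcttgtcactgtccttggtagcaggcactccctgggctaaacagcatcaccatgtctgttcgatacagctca

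The hair keratins KRT81 and KRT86 were the 2 keratins that fell in LM2 cells with caMKL1. KRT81, a type II hair keratin, had 11.3, 6.9 and 6.59 CPM with caMKL1 and 54.5, 29.5 and 36.7 CPM with MKL1, against 16.5, 16.3 and 16.8 CPM in controls. All caMKL1 libraries lay below the controls and all MKL1 libraries above them. The log2 ratio to control was -0.99 ± 0.22 with caMKL1 (adjusted p 0.000928) and 1.28 ± 0.21 with MKL1 (adjusted p 0.000719), and caMKL1 against MKL1 gave -2.27 ± 0.22 (adjusted p 1.92e-07). KRT86, its near-identical relative, had 0.384, 0.61 and 0.198 CPM with caMKL1 and 2.53, 1.12 and 1.96 CPM with MKL1, against 0.851, 1.14 and 1.17 CPM in controls. The KRT86 log2 ratio was -1.39 ± 0.41 with caMKL1 (adjusted p 0.00785), and with MKL1 the ranges overlapped (0.84 ± 0.32, adjusted p 0.104). KRT86 shares 221 exon bases with AC121757.2 on the opposite strand, which had 306 counts over the 9 libraries against 280 for KRT86, so its values are uncertain. KRT34, a type I hair keratin, averaged 1.04 ± 0.183, 0.921 ± 0.221 and 0.693 ± 0.134 CPM in caMKL1, MKL1 and control libraries (SD, n = 3 each), and its 0.56 ± 0.31 with caMKL1 did not pass (adjusted p 0.121).

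KRT80, a type II filament keratin of differentiating epithelia, had 43.9, 31.1 and 28.7 CPM with caMKL1 and 65.4, 51.5 and 48.6 CPM with MKL1, against 39.7, 41.7 and 38.3 CPM in controls. The caMKL1 and control ranges overlapped (log2 ratio -0.20 ± 0.15, adjusted p 0.235), and MKL1 libraries were higher by 0.47 ± 0.15 on the log2 scale (adjusted p 0.0474). That last call was lost with library totals (adjusted p 0.165). It was also lost without caMKL1 replicate 2 (adjusted p 0.0578), MKL1 replicate 1 (0.168) or any 1 control (0.134, 0.101 and 0.179).

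With wild-type MKL1 in LM2, 9 of 15 tested keratins were higher than in controls, none was lower and 6 did not pass, where 12% of all tested genes were called in either direction, 7.24% higher and 4.74% lower. Those 9 were KRT17, KRT9, KRT14, KRT16, KRT7, KRT81, KRT8, KRT19 and KRT80. The tested keratins had a median log2 ratio of 0.58, against 0.01 over all tested genes. KRT9, KRT14, KRT16 and KRT17 averaged 0, 0, 0.0126 and 0.143 CPM in controls and passed the filter on low counts through treated groups. Directions and medians here, and between caMKL1 and MKL1, are therefore partly fixed by the filter. The count was 5 without control replicate 1 or control replicate 2 and 6 with library totals. Between caMKL1 and MKL1, 8 keratins were higher with caMKL1 and 5 were lower (KRT7, KRT10, KRT80, KRT81 and KRT86), while KRT18 and KRT34 did not pass. For KRT18 that log2 ratio was -0.19 (adjusted p 0.21), and it passed with library totals (-0.51, adjusted p 0.00824), without caMKL1 replicate 1 (-0.34, adjusted p 0.0205) and without the first library of both treated groups (-0.19, adjusted p 0.0311). Of all tested genes 64.5% were called in that comparison, 32.6% higher and 31.9% lower, and the median log2 ratio was 1.46 for the tested keratins and -0.04 for all tested genes.

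The make-up of the keratin transcript pool changed with it. KRT17 held 39.5% to 41.6% of the summed keratin TPM of the caMKL1 libraries and 8.4% to 12.7% in MKL1 libraries, against 0.0199% to 0.0544% in controls. KRT18 held 5.23% to 5.71% with caMKL1 and 25.2% to 26.4% with MKL1, against 33.8% to 36.7% in controls. Summed TPM of type I keratins was 6.08 ± 0.262 times that of type II keratins with caMKL1 and 1.07 ± 0.0408 times with MKL1, against 1.27 ± 0.0367 in controls (SD, n = 3 each). The ratio in single caMKL1 libraries ran from 5.86 to 6.37, so the first library did not stand apart in it. Exon length in the tables is the union of all annotated exons, 6881 bases for KRT8 and 3069 for KRT18, which sets the level of the TPM ratio.

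In 4T1 cells with caMKL1, 13 of 14 tested keratins were higher than in controls and none was lower, where 72% of all tested genes were called, 36.2% higher and 35.8% lower. The exception was Krt10, with 1.69, 2.69 and 1.87 CPM with caMKL1 and 2.17, 2.45 and 1.6 CPM with MKL1, against 2.18, 2.63 and 2.29 CPM in controls (log2 ratio with caMKL1 -0.17 ± 0.20, adjusted p 0.452). The median log2 ratio of the tested keratins was 1.78, against -0.02 over all tested genes. Krt13, Krt20, Krt42 and Krt88 averaged 0.236, 0.214, 0.144 and 0.271 CPM in controls and passed the filter on low counts through the groups in which they were high. Directions and medians of the 4T1 comparisons are therefore partly fixed by the filter. With MKL1, 9 of 14 were higher and none was lower, where 34.3% of all tested genes were called, 19.3% higher and 15% lower. The median log2 ratio there was 0.74 for the tested keratins and -0.0029 for all tested genes. Between caMKL1 and MKL1, 11 of 14 were higher with caMKL1, none was lower and 66.6% of all tested genes were called, 33.8% higher and 32.8% lower. With library totals 1 keratin, Krt17, was lower in that comparison (log2 ratio -0.21, adjusted p 0.0171).

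The simple pair led the mouse keratins. Krt8 had 1685, 1693 and 1743 CPM with caMKL1 and 925, 943 and 932 CPM with MKL1, against 514, 499 and 499 CPM in controls. Krt18 had 1461, 1509.8 and 1515 CPM with caMKL1 and 1110.0, 1113 and 1121 CPM with MKL1, against 724, 709 and 718 CPM in controls. The groups of both genes were ordered caMKL1, MKL1, control with no overlap. The log2 ratio of Krt8 to control was 1.76 ± 0.03 with caMKL1 and 0.89 ± 0.03 with MKL1, and that of Krt18 was 1.06 ± 0.03 and 0.64 ± 0.03 (adjusted p 8.25e-16 or less in all 4).

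Krt7 had 1026, 1079.7 and 1109 CPM with caMKL1 and 584, 592 and 583 CPM with MKL1, against 509, 474 and 488 CPM in controls. Its 3 groups kept apart, with a log2 ratio to control of 1.13 ± 0.03 with caMKL1 (adjusted p 5.25e-20) and 0.26 ± 0.03 with MKL1 (adjusted p 3.73e-07). Krt19 had 358, 368 and 373 CPM with caMKL1 and 107, 117 and 103 CPM with MKL1, against 55.5, 55.8 and 52.5 CPM in controls. It also separated all 3 groups, by 2.75 ± 0.04 and 1.00 ± 0.04 on the log2 scale (adjusted p 3.83e-25 and 4.99e-15). Krt20, a type I keratin of gut and urothelium, had 26.1, 24.5 and 24.3 CPM with caMKL1 and 1.78, 1.33 and 1.82 CPM with MKL1, against 0.153, 0.225 and 0.263 CPM in controls. Its log2 ratio of 6.83 ± 0.16 with caMKL1 (adjusted p 2.16e-21) was the largest of the 14 tested mouse keratins.

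Krt17 rose with both constructs without a detected difference between them. It had 18.9, 22.9 and 24.0 CPM with caMKL1 and 22.5, 23.4 and 24.7 CPM with MKL1, against 2.33, 2.25 and 2.11 CPM in controls. Both treated groups lay far above the controls, with log2 ratios of 3.30 ± 0.11 and 3.40 ± 0.11 (adjusted p 2.54e-18 and 1.97e-17), and they overlapped each other (-0.10 ± 0.08, adjusted p 0.272). Krt16 had 29.7, 31.6 and 33.0 CPM with caMKL1 and 2.52, 2.49 and 2.05 CPM with MKL1, against 0.458, 0.61 and 0.414 CPM in controls. It separated all 3 groups, with 5.96 ± 0.13 for caMKL1 and 2.23 ± 0.21 for MKL1 against control (adjusted p 4.44e-22 and 9.4e-09). Krt14 had 155, 157 and 160.3 CPM with caMKL1 and 39.8, 37.9 and 36.2 CPM with MKL1, against 22.3, 20.5 and 20.6 CPM in controls. Its log2 ratios of 2.90 ± 0.05 and 0.85 ± 0.05 both passed (adjusted p 9.37e-25 and 3.46e-12), while Krt5 had 2 counts over the 9 libraries and Krt6a and Krt6b had none.

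**Figure D2:**
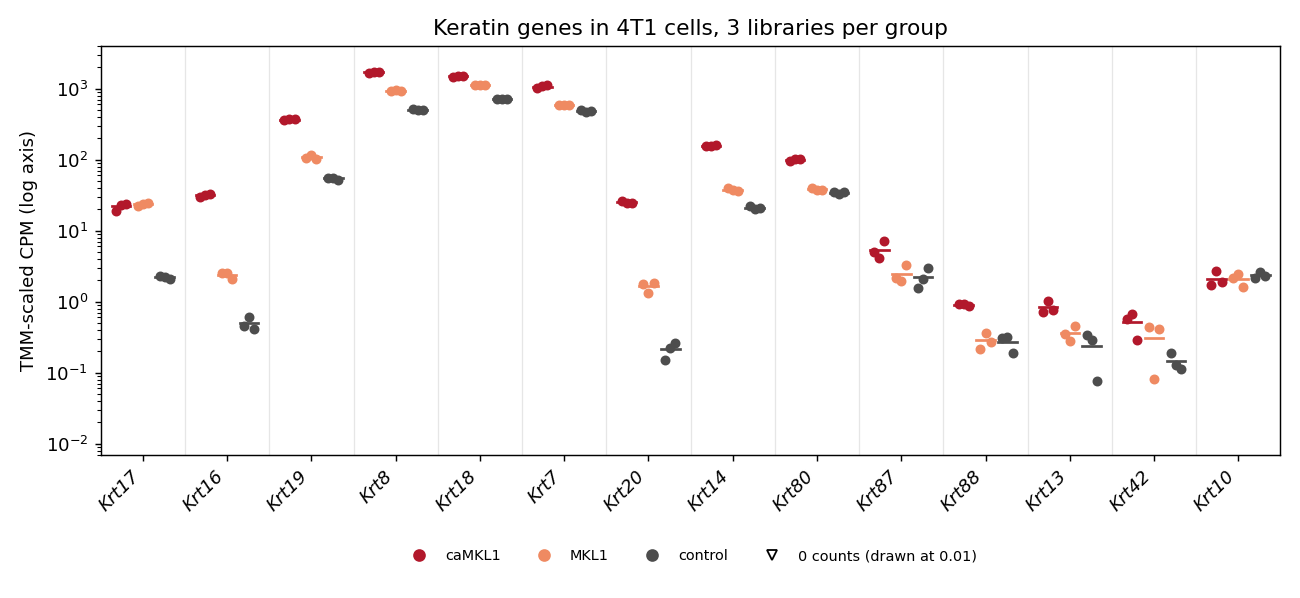
TMM-scaled CPM levels of the 14 tested keratins in the 9 4T1 libraries, on a log axis, with points for libraries and bars for group means. Most keratins fall in the order caMKL1, MKL1, control, whereas the caMKL1 and MKL1 points of Krt17 overlap and Krt10 is level.

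Krt80 had 95.1, 101 and 101 CPM with caMKL1 and 40.0, 37.5 and 37.7 CPM with MKL1, against 35.5, 32.6 and 34.5 CPM in controls. Its log2 ratio was 1.53 ± 0.05 with caMKL1 (adjusted p 2.54e-19) and 0.17 ± 0.05 with MKL1 (adjusted p 0.0112), the second lost with library totals (adjusted p 0.125), without MKL1 replicate 1 (0.0738) and without control replicate 2 (0.0705). The hair keratin Krt87 had 4.93, 4.13 and 7.21 CPM with caMKL1 and 2.17, 1.93 and 3.33 CPM with MKL1, against 1.57, 2.05 and 3.01 CPM in controls. Only the caMKL1 libraries stood apart, by 1.29 ± 0.22 on the log2 scale (adjusted p 1.65e-05). Krt13, Krt42 and Krt88 also passed with caMKL1 at means of 0.839, 0.509 and 0.903 CPM, against 0.236, 0.144 and 0.271 CPM in controls.

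Type I keratin TPM in 4T1 was 1.32 ± 0.017 times that of type II with caMKL1 and 1.54 ± 0.00806 times with MKL1, against 1.63 ± 0.0168 in controls (SD, n = 3 each). Summed keratin TPM was 7936 ± 231 with caMKL1 and 5061 ± 64.0 with MKL1, against 3216 ± 80.03 in controls. The same sum in LM2 was 2565 ± 864 with caMKL1 and 858 ± 178 with MKL1, against 515 ± 20.7 in controls. These sums are not comparable between the lines, because annotated exon lengths differ, at 1958 bases for Krt8 and 6881 for KRT8. Control means were 504 CPM and 944 TPM for Krt8 in 4T1, and 173 CPM and 102 TPM for KRT8 in LM2.

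Whether the lines differed in their response was tested for 16 keratins in a fit to 18 libraries with genes matched by symbol. The response to caMKL1 differed between 4T1 and LM2 for 13 of 16 keratins, 6 with a larger and 7 with a smaller log2 ratio in 4T1, where 60.3% of all 13113 tested genes differed, 30.7% larger and 29.6% smaller. The response to MKL1 differed for 5 of 16 keratins, where 19.9% of all tested genes differed, 9.32% larger and 10.6% smaller. Among the 16, KRT9, KRT13, KRT34 and KRT86 could not be estimated for MKL1, and KRT9 and KRT34 for caMKL1, because groups of 1 line held no counts. For KRT17 the 4T1 minus LM2 difference in log2 ratio was -9.75 ± 0.43 with caMKL1 (adjusted p 3.39e-14) and -5.59 ± 0.47 with MKL1 (adjusted p 4.63e-08), so its response was smaller in 4T1. KRT19 was raised less in 4T1 by caMKL1 (-1.94 ± 0.13, adjusted p 2.87e-11) and more by MKL1 (0.49 ± 0.13, adjusted p 0.0109). KRT18 and KRT80, which did not pass in LM2 with caMKL1, responded more in 4T1 by 0.75 ± 0.14 (adjusted p 6.3e-05) and 1.61 ± 0.16 (adjusted p 1.29e-08). KRT7 responded more to caMKL1 in 4T1 (0.65 ± 0.15, adjusted p 0.00077) and more to MKL1 in LM2 (-1.32 ± 0.15, adjusted p 3.27e-06). KRT8 responded a little less to caMKL1 in 4T1 (-0.41 ± 0.11, adjusted p 0.00388), a call lost with library totals (-0.08, adjusted p 0.691). Species, construct level and line cannot be told apart in these differences.

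**Figure D3:**
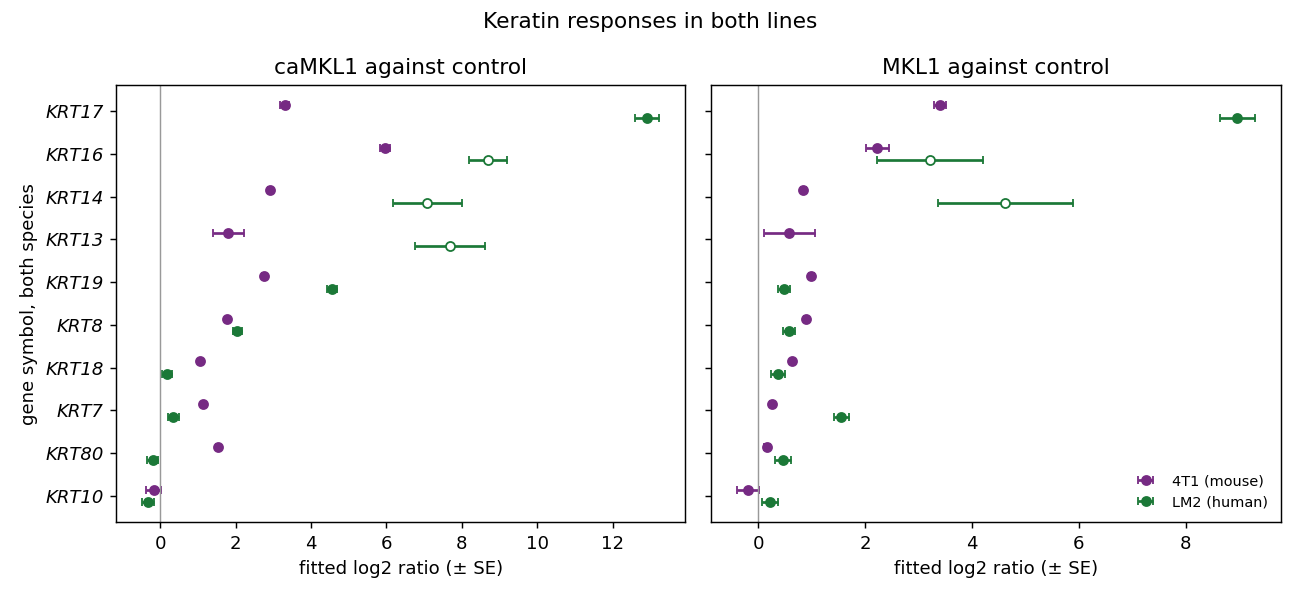
Fitted log2 ratios to control with standard errors for 10 keratins in 4T1 (purple) and LM2 (green), for caMKL1 on the left and MKL1 on the right, with open points where a group held 3 counts or fewer and no point for KRT13 with MKL1 in LM2. The green KRT17 points, at 12.92 and 8.96, lie to the right of the purple ones at 3.30 and 3.40, whereas KRT8 points lie close together.

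In LM2 cells grouped by LifeAct, keratins changed in both directions. Low cells had 9 of 15 tested keratins higher than negative cells and 2 lower, where 49.6% of all 21869 tested genes were called, 26% higher and 23.6% lower. High cells had 10 higher and 4 lower, with 71.1% of all tested genes called, 36% higher and 35.2% lower. Between high and low cells 7 were higher and 2 lower, with 50.3% called (26.6% higher and 23.7% lower), and 6 were higher and 4 lower with library totals. The median log2 ratios of the tested keratins were 0.22, 0.38 and 0.18 in these 3 comparisons, against -0.01, -0.03 and -0.04 over all tested genes. KRT14 and KRT17, with 1 count each over negative cells, passed the filter on low counts through groups in which they were high. Directions and medians are therefore partly fixed by the filter here too. DESeq2 called 8 higher and 3 lower in high against negative cells.

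KRT17 was nearly uncounted in negative cells and rose in low and high cells. It had 0, 0.0646 and 0 CPM in negative cells, 2.29, 2.02 and 1.91 CPM in low cells and 18.1, 18.2 and 17.8 CPM in high cells. The 3 groups did not overlap, and high cells lay 3.12 ± 0.13 above low cells on the log2 scale (adjusted p 7.37e-18). Since negative cells held 1 count, the ratio of levels was 101 in low cells, with a 95% counting interval of 17.7 to 4005, and 881 in high cells, with an interval of 158 to 34815. KRT14 had 0, 0.0646 and 0 CPM in negative cells, 0.273, 0.0593 and 0.39 CPM in low cells and 2.18, 2.41 and 2.48 CPM in high cells. Only the high cells stood apart, with a ratio of 114 to negative cells and an interval of 20.1 to 4539.

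Of 17 hair keratins, 4 were tested, and KRT81 and KRT34 were the 2 that passed in each comparison of LifeAct groups. KRT81 had 79.3, 81.5 and 74.0 CPM in negative cells, 144, 153 and 145 CPM in low cells and 252, 230.0 and 229 CPM in high cells. The groups did not overlap, with log2 ratios to negative cells of 0.91 ± 0.05 and 1.60 ± 0.05 (adjusted p 4.35e-15 and 1.59e-21). In TPM, which divides by exon length, KRT81 was the most abundant keratin of high cells, at 372 ± 32.2 (SD, n = 3). In CPM it averaged 237 there, below KRT8 at 367, KRT7 at 276 and KRT18 at 260. Exon length is 1929 bases for KRT81 and 6881 for KRT8. KRT34 had 0.828, 0.839 and 0.488 CPM in negative cells, 1.09, 1.36 and 1.34 CPM in low cells and 3.87, 3.39 and 4.24 CPM in high cells. Its log2 ratio to negative cells was 2.41 ± 0.25 in high cells (adjusted p 9.42e-10) and 0.82 in low cells. The KRT34 call in low cells was lost in DESeq2 (adjusted p 0.0542). It was also lost without negative replicate 3 (0.132), low replicate 2 (0.0578) or low replicate 3 (0.0711). KRT83 and KRT86 averaged 0.658 and 8.16 CPM in high cells, and 0.303 and 6.72 CPM in negative cells. Both passed in that comparison (adjusted p 0.0443 and 0.0316), and both calls were lost in DESeq2 (0.102 and 0.0779), with library totals (0.0502 and 0.0514) and without the low-count filter (0.0702 and 0.0709).

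KRT19 fell with LifeAct. It had 259, 260.3 and 233 CPM in negative cells, 157, 159 and 152 CPM in low cells and 88.8, 80.1 and 78.3 CPM in high cells. No groups overlapped, and the log2 ratio to negative cells was -0.69 ± 0.05 in low and -1.60 ± 0.05 in high cells (adjusted p 1.48e-12 and 3.83e-21). KRT15 fell too, with 13.1, 14.1 and 12.01 CPM in negative cells, 8.84, 9.14 and 9.01 CPM in low cells and 7.18, 7.04 and 7.21 CPM in high cells. Its log2 ratio was -0.53 ± 0.10 in low and -0.87 ± 0.10 in high cells (adjusted p 4.31e-05 and 1.55e-08). KRT12, the corneal keratin, and KRT79, a sebaceous keratin, were lower in high cells at 0.273 and 0.621 CPM, against 0.84 and 1.19 CPM in negative cells (adjusted p 0.00311 and 0.0351), the KRT79 call being lost in DESeq2 (0.069) and without negative replicate 3 (0.131) or high replicate 3 (0.196).

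**Figure D4:**
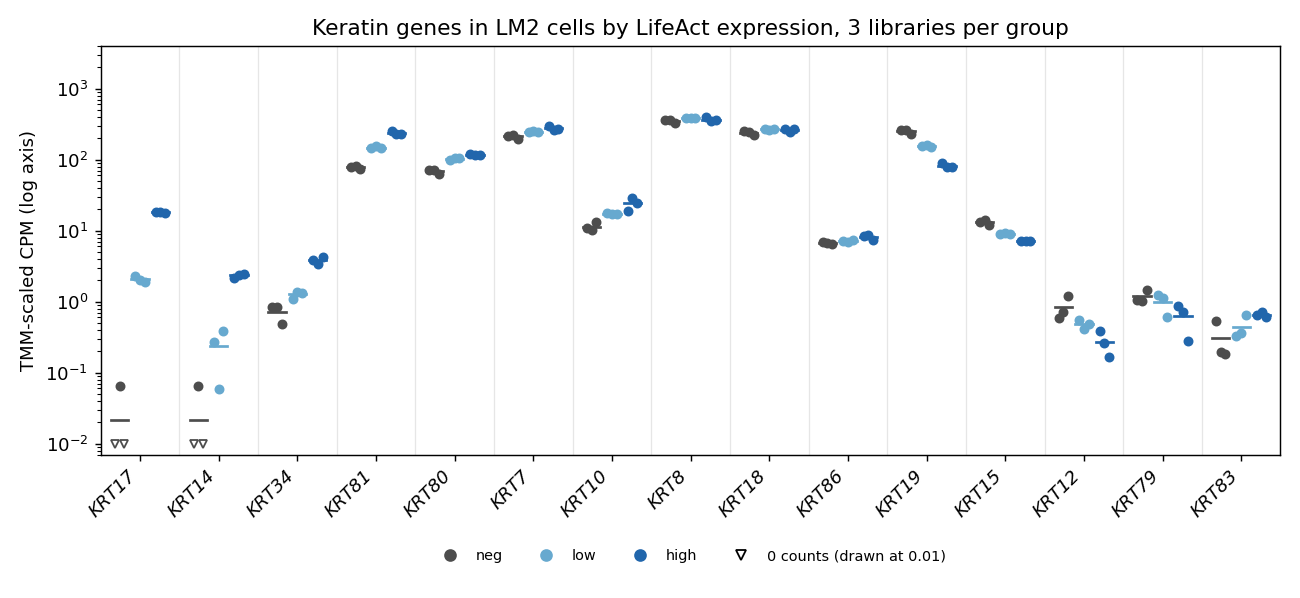
TMM-scaled CPM levels of the 15 tested keratins in LM2 cells negative, low or high for LifeAct, on a log axis, with points for libraries, bars for group means and open triangles for 0 counts. KRT17, KRT14, KRT34 and KRT81 climb from left to right within their columns, while KRT19 and KRT15 step down.

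The simple pair differed little between groups. KRT8 had 362, 362 and 333 CPM in negative cells, 385, 388 and 383 CPM in low cells and 393, 349 and 360.2 CPM in high cells. KRT18 had 249.5, 243 and 221 CPM in negative cells, 271, 263 and 270.1 CPM in low cells and 272, 242 and 266 CPM in high cells. Low cells were slightly above negative cells for both (log2 ratio 0.13 ± 0.04, adjusted p 0.0136, and 0.17 ± 0.05, adjusted p 0.00286), and high and negative ranges overlapped. The KRT8 call was lost without negative replicate 3 (adjusted p 0.0577). KRT18 passed between high and negative cells (0.13 ± 0.05, adjusted p 0.0139), a call lost without negative replicate 3 (0.0792), high replicate 1 (0.0672) or high replicate 3 (0.0634). KRT8 did not pass there (0.06 ± 0.04, adjusted p 0.201).

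KRT7 had 219, 219.7 and 199 CPM in negative cells, 248, 251 and 244 CPM in low cells and 295, 264 and 269 CPM in high cells. It rose by 0.22 ± 0.05 in low and 0.38 ± 0.05 in high cells on the log2 scale (adjusted p 0.000194 and 2.5e-08). KRT80 had 71.5, 71.1 and 62.2 CPM in negative cells, 99.7, 106 and 104 CPM in low cells and 122, 117 and 115 CPM in high cells. KRT10 had 10.9, 10.1 and 13.2 CPM in negative cells, 17.6, 17.1 and 17.2 CPM in low cells and 19.2, 28.5 and 24.8 CPM in high cells. Neither gene had overlapping groups, and in high cells their log2 ratios were 0.79 ± 0.05 and 1.07 ± 0.11 (adjusted p 8.55e-14 and 2.36e-09).

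Summed keratin TPM was 1165 ± 37.3, 1265 ± 14.8 and 1269 ± 95.5 in negative, low and high cells (SD, n = 3 each), while its make-up turned over. KRT19 held 29.7% to 30.3% of it in negative cells, 17.0% to 17.4% in low cells and 8.14% to 8.64% in high cells. KRT81 held 11.1% to 11.5%, 19.4% to 20.3% and 28.8% to 29.6% in the same order. Type I keratin TPM was 1.18 ± 0.0106, 0.748 ± 0.016 and 0.516 ± 0.0171 times that of type II.

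**Figure D5:**
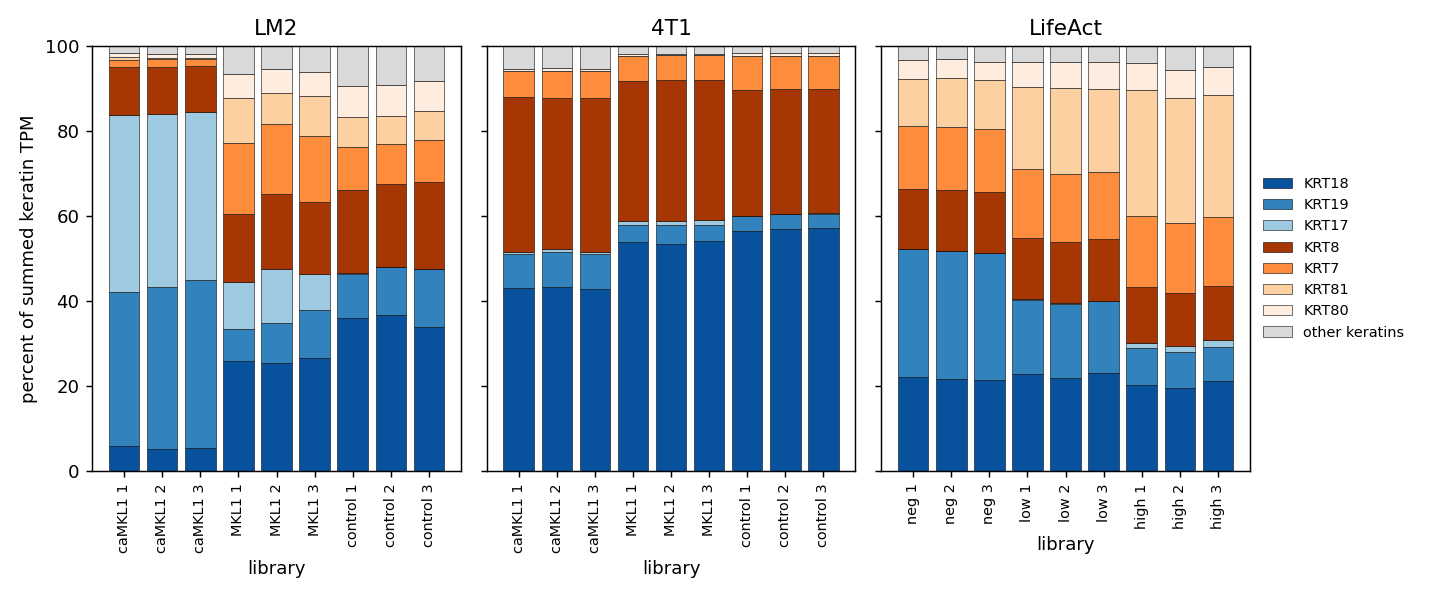
Share of the summed keratin TPM held by 7 keratins in each of 27 libraries, with type I keratins in blue, type II in orange shades and all other keratins in grey. KRT17 and KRT19 fill most of the LM2 caMKL1 bars, KRT18 and KRT8 most of the 4T1 bars, and KRT81 widens while KRT19 narrows from LifeAct negative to high.

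Comparisons within an experiment share their control or negative libraries, so their keratin values stand side by side here and were not scored for overlap. KRT19 was higher with caMKL1 in LM2 and lower in LifeAct-high LM2 cells, a pair of changes whose difference was not tested. The LM2 controls and the LifeAct-negative LM2 cells also started from different levels, with KRT19 at 35.1 and 251 CPM, KRT7 at 49.9 and 212 CPM and KRT81 at 16.6 and 78.2 CPM in tables that were scaled separately and come from different RNA selection.

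Genes whose products link or regulate keratins were read from lists. Of 10 tested desmosome genes, which anchor keratins to cell junctions, 6 were higher and 4 lower in LM2 with caMKL1 (median log2 ratio 0.42, against -0.05 over all genes, of which 64.9% were called). DSC2 averaged 345 ± 29.5 CPM with caMKL1 and 41.5 ± 4.25 in controls, and DSP 587 ± 44.7 and 237 ± 3.78. In 4T1, 8 of 12 were higher and 3 lower, where 72% of all genes were called, and Dsp was at 554 ± 1.75 CPM with caMKL1 and 187 ± 3.41 in controls. LifeAct-high cells had 2 of 10 higher and 6 lower, where 71.1% of all genes were called, with PPL at 23.4 ± 0.893 CPM in high and 132 ± 6.69 in negative cells.

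Of 6 hemidesmosome genes, which tie keratins to the basement membrane, ITGA6 was higher with caMKL1 in both lines, at 744 ± 39.4 CPM in LM2 caMKL1 and 251 ± 17.0 in LM2 control libraries, and at 706 ± 4.42 in 4T1 caMKL1 and 335 ± 7.53 in 4T1 control libraries. PLEC, the cytolinker plectin, was lower with caMKL1 in LM2, at 151 ± 34.2 CPM against 336 ± 7.6 in controls, and higher in 4T1, at 1113 ± 21.1 against 698 ± 43.4. ITGB4 averaged 82.3 ± 6.53 CPM in LifeAct-high and 433 ± 31.3 in negative cells. In the 3 comparisons of caMKL1 or LifeAct high with control, 2, 2 and 1 of these 6 genes were higher and 1, 3 and 3 lower, near the 64.9%, 72% and 71.1% called over all genes.

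Keratin partner genes included HSPB1, a small heat shock protein that binds keratin filaments, at 506 ± 75.5 CPM with caMKL1 and 30.0 ± 1.5 in LM2 controls, and at 229 ± 4.79 with caMKL1 and 8.04 ± 0.767 in 4T1 controls. Of 6 tested partners in LM2, 3 were higher and 3 lower with caMKL1, and of 7 in 4T1, 4 were higher and 2 lower, with median log2 ratios of -0.20 and 0.58. The shares called over all genes were 64.9% and 72%. VIM, the mesenchymal filament vimentin, averaged 6283 ± 652 CPM with caMKL1 and 1596 ± 19.8 in LM2 controls. In its list of other intermediate filaments 2 of 8 were higher and 5 lower, where 64.9% of all genes were called, and the median log2 ratio was -0.84. In 4T1 with caMKL1, 4 of 9 listed genes were higher and 4 lower, where 72% of all genes were called. Their list summed to 2695 to 2737 CPM with caMKL1 and 2526 to 2557 in 4T1 controls. LifeAct-high cells had 2 of 9 higher and 7 lower than negative cells, where 71.1% of all genes were called. Of 14 tested regulators of epithelial genes, 6 were higher and 5 lower with caMKL1 in LM2, where 64.9% of all genes were called. In 4T1, 6 of 14 were higher and 6 lower, where 72% were called. The median log2 ratios were 0.25 and 0.04. In LifeAct-high cells 6 of 16 were higher, 3 were lower and 7 did not pass, where 71.1% of all genes were called. The median log2 ratio was 0.13, against -0.03 over all genes. Among the 6 higher, KLF5 was at 68.5 ± 0.505 CPM in high and 21.2 ± 1.08 in negative cells. EHF, also among them, was at 16.0 ± 1.23 in high and 3.13 ± 0.294 in negative cells. Fewer expressing cells and less RNA per cell cannot be told apart in these bulk libraries.

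Among epithelial markers other than keratins, no common direction was seen with caMKL1. In LM2 EPCAM averaged 34.1 ± 5.61 CPM with caMKL1 and 13.5 ± 0.333 in controls (adjusted p 1.45e-07), CDH3 14.7 and 0.512 CPM (higher), CLDN7 1.15 and 6.22 (lower) and CLDN4 8.19 and 9.4 (not passing), while CDH1 and CLDN3 were too low to test. In 4T1 Epcam averaged 71.7 ± 3.84 CPM with caMKL1 and 217 ± 6.96 in controls (adjusted p 4.78e-20). Cdh1 averaged 912 CPM with caMKL1 and 669 in 4T1 controls, Cldn4 289.7 and 159, and Cldn7 40.3 and 24.8, all 3 higher, while Cdh3 and Cldn3 did not pass. In the LifeAct experiment none of 6 tested epithelial markers was higher in low or high cells than in negative cells. In high cells 5 were lower (median log2 ratio -0.84), where 71.1% of all tested genes were called, 35.2% lower. In low cells 4 were lower, where 49.6% were called, 23.6% lower. Markers of other cell types also moved in LM2. Of the leukocyte markers, CD14 averaged 1.81 CPM with caMKL1 and 0.384 in controls, PTPRC 0.255 and 0.166, and CD3E 0.0891 and 0. Endothelial markers (PECAM1, CDH5 and KDR) were at 2.07 to 2.84 CPM with caMKL1 and 6.24 to 8.59 in controls, and fibroblast markers (COL1A1, DCN, LUM and PDGFRA, with DCN at 0 in controls) at 5.11 to 6.45 and 6.98 to 9.26. In the LifeAct experiment endothelial markers summed to 93.1 to 96.0, 32.9 to 34.2 and 11.7 to 13.01 CPM in negative, low and high cells, with PECAM1 averaging 7.45 CPM in high and 92.3 in negative cells. CD14 averaged 1.83 CPM in high and 4.59 in negative cells, and PTPRC 0.493 in high and 2.39 in negative cells. In 4T1 Cd14 averaged 2.71 CPM with caMKL1 and 6.94 in controls, Ptprc 0.0123 and 0.0253, and Cd3e was at 0 in both groups. The part of these markers in the keratin results was not tested.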

How the data were processed

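RNA was measured in 27 libraries, 3 in each of 9 groups, with groups and replicate numbers read from the GEO titles. The authors deposited counts: whole numbers of read pairs assigned to a gene name by featureCounts v2.0.1 from STAR alignments, per the file headers, using Ensembl annotation 103 (GRCh38) for LM2 and LifeAct and 102 (GRCm38) for 4T1. No header names a STAR version. Neither a strand setting nor a multi-mapping setting appears in the headers. In the submitters' processing notes, DESeq2, hg38 and mm10 are also named.

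For each experiment, all 9 libraries entered 1 quasi-likelihood fit with F tests in edgeR 4.0.16 (R 4.3.3, TMM scaling, filterByExpr with a minimum count of 10, prior count 0.125). P-values were adjusted by Benjamini-Hochberg over all tested genes, and a call is an adjusted p under 0.05. The SE of a log2 ratio is approximate: the size of the ratio divided by the square root of its F statistic. CPM and TPM were computed here, TPM with the exon length column. For a group at 0 counts, "at least" folds use a floor of 3 counts summed over the group. For a group with 1 to 3 counts, an exact 95% interval is given that covers counting error only, and the fitted ratio depends on the prior count. The 2 lines were joined by gene symbol, ignoring case, and their responses compared through an interaction term.

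Named in full were KRT7, KRT8, KRT17, KRT18 and KRT19 and every keratin that passed in an experiment at 1 CPM or more in a group. Other keratins and list genes are given by counts or as examples. Of the lists, 1 epithelial and 1 leukocyte gene are not reported here. The members, lists and tests were chosen with earlier results of these data known. Alternatives were DESeq2 1.42.0, its size factors in edgeR, library totals, no low-count filter, only the groups compared, a replicate block, and fits with libraries left out. The fit was tested on simulated data with known changes.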

Additional observations from a re-analysis of the deposited data

Results flagged for a closer look

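Responses that differed between 4T1 and LM2 by the interaction test are given as the 4T1 minus LM2 difference in log2 ratio to control, from edgeR with Benjamini-Hochberg adjustment over 13113 genes. For caMKL1, 13 of 16 keratins differed, where 60.3% of all tested genes did. The response was larger in 4T1 for KRT80 (1.61), KRT18 (0.75) and KRT7 (0.65), and for KRT20 (9.04), KRT86 (6.15) and KRT81 (6.08), each of which had few counts in 1 of the lines. It was smaller in 4T1 for KRT17 (-9.75), KRT19 (-1.94), KRT8 (-0.41), KRT16 (-2.89), KRT14 (-4.41), KRT13 (-6.11) and KRT15 (-1.98). The KRT15 difference, of a gene too low to test in 4T1 alone, was lost without 4T1 control replicate 2 (-1.22, adjusted p 0.348), without 4T1 caMKL1 replicate 3 (-1.76, adjusted p 0.053) and with library totals (-1.63, adjusted p 0.0592). That of KRT16 was lost without LM2 control replicate 3 (-2.36, adjusted p 0.0542), and that of KRT8 with library totals (-0.08, adjusted p 0.691).

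For MKL1, 5 of 16 keratins differed, where 19.9% of all tested genes did. The response was larger in 4T1 for KRT20 (4.13) and KRT19 (0.49), and smaller for KRT17 (-5.59), KRT7 (-1.32) and KRT14 (-3.88). The KRT14 call was lost in DESeq2 (adjusted p 0.0522), without LM2 MKL1 replicate 1 (0.0747) and without any 1 LM2 control (0.0787, 0.0829 and 0.0914).

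Values for KRT13, KRT14 and KRT16, which had 0 or 1 count over the LM2 controls, and for KRT81 and KRT86, which had none over the 4T1 controls, depend on the prior count. KRT9 and KRT34 for both constructs, and KRT13 and KRT86 for MKL1, could not be estimated because groups of 1 line held no counts. They are among the 16 and could not have been called.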

How the results depend on the processing

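Of 170 alternatives for the counts of keratins called, 168 stayed within 1.5 times the reported count. The 2 that did not were for MKL1 against control in LM2, where 9 keratins became 5 without control replicate 1 or control replicate 2. Leaving out 1 library at a time gave 5 to 9 there and 9 to 12 (reported 11) for caMKL1 against control. Of 1943 alternatives for 127 log2 ratios of named keratins, 1851 kept their direction and side of the threshold, 70 lost a call, 19 gained one and 3 reversed. With library totals KRT7 was at -0.049 and KRT18 at -0.21 for caMKL1 against control in LM2. KRT18 in LifeAct high against low was at 0.012 without high replicate 2, within a range of -0.073 to 0.012 over left-out libraries. The cause was not tested. Library totals moved the median log2 ratio of all genes to -0.46 for caMKL1 against control in LM2, against -0.05 with TMM, and its split to 4137 higher and 9271 lower, against 6029 and 6241.

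The replicate number as a block gave 12 keratins (reported 11) for caMKL1 and 10 (reported 9) for MKL1 against control in LM2, 13 (reported 14) for LifeAct high against negative and 6 (reported 5) for the difference between lines with MKL1, and the same count in the other 7 comparisons. The block brought KRT18 for MKL1 against control in LM2 past the threshold (adjusted p 0.0174, reported 0.0737). The labels do not say that replicate numbers pair samples, so the libraries were not treated as paired. Of same-number pairs, 3 of 9 had a correlation above 0.1 in LM2, 3 of 9 in 4T1 and 0 of 9 in the LifeAct experiment. Of 18 pairs of different number, 1, 0 and 0 did. Of 9 libraries, 7, 5 and 0 correlated best with one of their own number, a hint from the data and not the design. Keratins below 1 CPM rest on few counts, and 3 libraries a group limit each interval.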

Other observations

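Some keratins too low to test were counted mainly in 1 group. In LM2, KRT25, a root sheath keratin, had 28 counts over the caMKL1 libraries, 2 over MKL1 and 0 over controls, which is at least 10.7-fold higher with caMKL1 than in controls. Against MKL1 its ratio of levels was 18.3, with a 95% counting interval of 4.62 to 159. In 4T1, Krt81 had 14 counts with caMKL1, 1 with MKL1 and 0 in controls, and Krt86 had 11, 0 and 0. Krt78 had 17, 5 and 1 there, a ratio to control of 19.2 with an interval of 3.01 to 804.

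In the LifeAct experiment KRT78 had 0 counts in negative, 7 in low and 30 in high cells, at least 8.64-fold higher in high than in negative cells. KRT16 had 1, 3 and 23 counts in negative, low and high cells, and its ratio of high to negative was 19.9 with an interval of 3.23 to 819. KRT33B, a hair keratin, had 0, 12 and 10 counts. None of these genes was tested, and the intervals cover counting error only.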
